A study of Arabidopsis thaliana with 24 samples.

Results

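The 210 genes described here were higher in the roots of Arabidopsis thaliana seedlings in polyethylene glycol (PEG) than in water. With counts scaled to library totals, this held in every library and at every time sampled. They were chosen by their root levels, from 14557 genes with counts. CPM, a gene's count per 1000000 counts of its library, had to average at least 10 over the 9 root PEG libraries. That mean also had to be at least 1.5 times the mean of the 3 root water libraries, and each of the 9 PEG values had to lie above the highest water value. The 210 genes are 1.44% of the table and 3.23% of the 6502 genes that reach the minimum level. Under another scaling of the root libraries, given below, 111 of the 210 still met the rule. The mirrored rule for falling genes takes 102 genes. Root PEG against root water therefore chose the genes, and is given below as values with no test.

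The series measured RNA by MARS-seq, which tags and counts the 3′ ends of transcripts, in 24 libraries from 8 groups of 3. All seedlings were of a line that the labels call µlox, without saying what it is, so that no group holds a wild type. They were 7 d old, and 30 to 50 seedlings were pooled for each replicate. For all samples the labels give 16 h of light and 8 h of dark, 21 °C and 1% sucrose. Roots and shoots were taken apart after 1, 2 or 3 h in 30% PEG, a solute that withdraws water and gave a water potential of -2.0 MPa, or after 1 h in water by the source names (the titles code the water samples as time 0). The same 3 water libraries of each tissue serve all 3 PEG times, so a later PEG time differs from water also in its time in liquid. The labels' tissue field reads root for all samples, and the tissue was taken from the source names. Nothing in the labels says that replicates were grown separately, so p-values measure only the spread between these samples.

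The libraries held 1597302 to 7029587 counts in root and 1203312 to 6090852 in shoot. The 12 photosynthesis markers took 11.5 to 13.2% of the counts of each shoot library and 0.0343 to 0.0999% of each root library, and the 12 root markers 0.0651 to 0.121% in root and 0.00370 to 0.0126% in shoot. In whole organs, a change in the share of a cell type and a change in RNA per cell cannot be told apart.

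Plants that lose water make abscisic acid (ABA), whose synthesis in water stress is limited by 9-cis-epoxycarotenoid dioxygenases. ABA is bound by receptors of the PYR/PYL family, which then inhibit clade A protein phosphatases 2C and release SnRK2 kinases. In parallel, transcription factors of the DREB/CBF family act on stress genes through the DRE element, whose core is CCGAC, and NAC factors through elements of their own. ABA-responsive elements share the core ACGTG, which bZIP factors bind.

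The 250 bases before the annotated start of 4 members are printed below, 5′ to 3′ on the gene's strand, because both cores were looked for there: 3 of the stress pathways and LSU1, a gene of sulfur shortage. The sequences are those of TAIR10.1 with its own annotation, matched by locus code, because the build behind the counts is not given in the sources used here. Capitals mark ACGTG or CCGAC on either strand. The windows lie at chr4:13709171-13709420 on the minus strand for RD26, chr5:1601955-1602204 on the plus strand for DREB2A, chr3:18375941-18376190 on the minus strand for LSU1 and chr3:4834016-4834265 on the minus strand for NCED3.
RD26: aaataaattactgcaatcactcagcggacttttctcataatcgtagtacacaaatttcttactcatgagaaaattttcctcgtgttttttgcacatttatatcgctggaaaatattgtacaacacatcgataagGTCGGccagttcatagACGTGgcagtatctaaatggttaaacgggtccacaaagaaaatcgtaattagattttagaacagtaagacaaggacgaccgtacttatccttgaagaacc
DREB2A: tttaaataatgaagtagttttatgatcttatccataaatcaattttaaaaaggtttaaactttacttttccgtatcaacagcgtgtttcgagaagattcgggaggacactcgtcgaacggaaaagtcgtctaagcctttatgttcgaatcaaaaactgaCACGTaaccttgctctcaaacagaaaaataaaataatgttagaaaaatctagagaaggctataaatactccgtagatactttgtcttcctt
LSU1: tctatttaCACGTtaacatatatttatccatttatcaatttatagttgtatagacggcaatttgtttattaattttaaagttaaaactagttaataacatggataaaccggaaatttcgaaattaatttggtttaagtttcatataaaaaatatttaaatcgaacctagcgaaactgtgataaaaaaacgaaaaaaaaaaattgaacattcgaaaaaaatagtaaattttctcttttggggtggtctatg
NCED3: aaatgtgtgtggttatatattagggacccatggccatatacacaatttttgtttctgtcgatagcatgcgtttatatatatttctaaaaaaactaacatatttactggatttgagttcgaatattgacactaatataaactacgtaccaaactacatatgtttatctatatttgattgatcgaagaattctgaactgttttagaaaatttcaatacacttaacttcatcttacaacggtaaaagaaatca

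RD26 held both cores, DREB2A and LSU1 held ACGTG once, and NCED3 held neither. Counted in windows of 300 bases, from 250 before to 50 after the start and on both strands, ACGTG was present in 80 of the 210 members (38.1%). It was present in 28.8% of the windows of the 14456 genes of the table that have one, and in 28.6% of the 6486 windows of genes over the minimum root level. CCGAC was in 17.62% of members and 16.2% of all windows. The palindromic G-box CACGTG, which contains ACGTG, was in 12.4% of members and 9.30% of all windows, and the evening element AAATATCT in 7.62% and 6.11%. These are matches of letters and do not show binding.

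Of the 210 members, 204 are annotated as protein-coding. In root, 92 had a ratio of PEG to water of 1.5 to 2, 93 of 2 to 4, and 25 of 4 or more, with a median of 2.14 and a range of 1.51 to 34.2. Their mean root PEG levels ran from 10.05 to 1307 CPM with a median of 36.6. Together the members took 0.813 to 0.992% of the counts in the root water libraries, 1.64 to 2.22% after 1 h, 1.75 to 2.07% after 2 h and 1.77 to 1.86% after 3 h. The share of counts in PEG lay above that in water in all 9 libraries, as the choice of the genes requires.

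**Figure D1:**
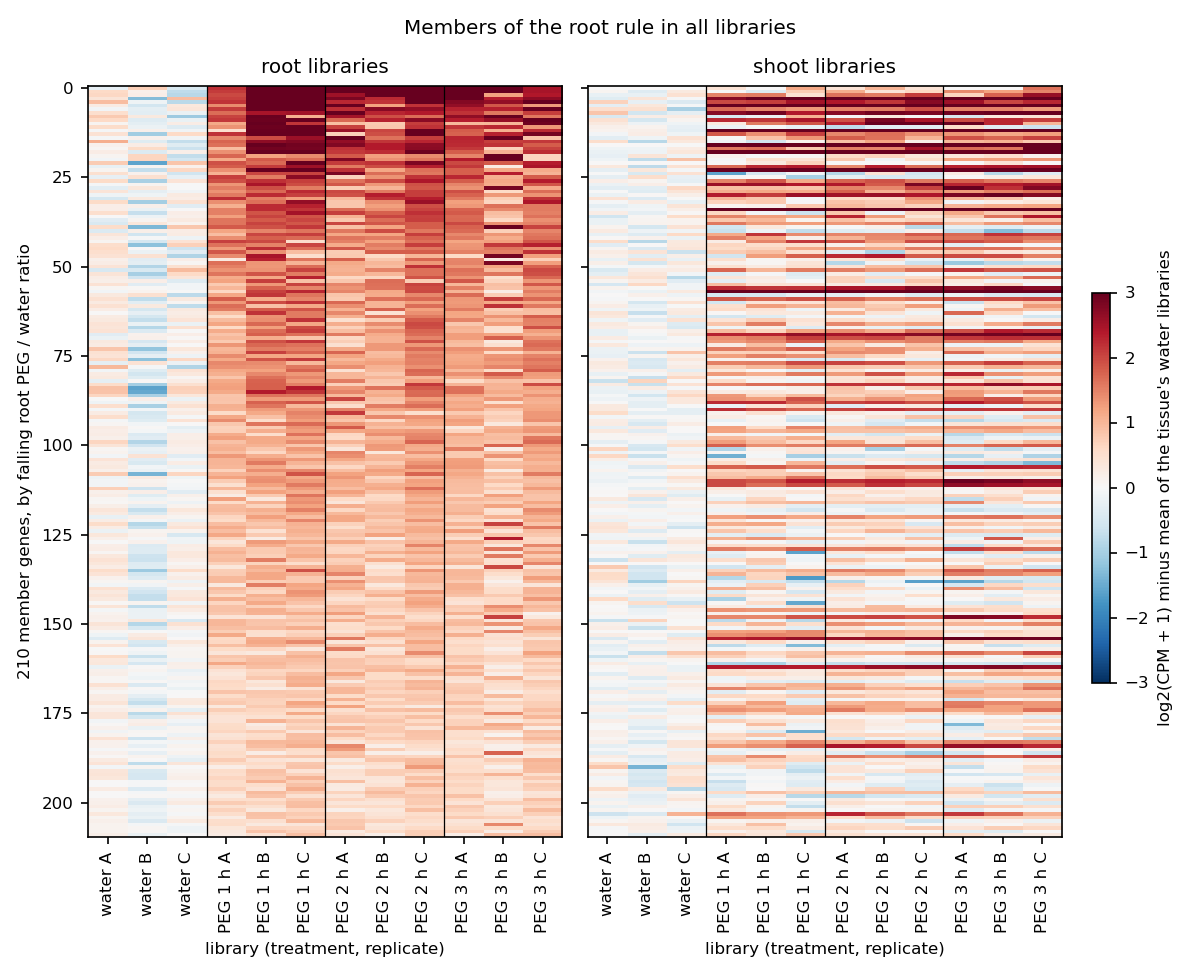
Each row is 1 of the 210 members, ordered by falling ratio of root PEG to root water, and each column is 1 library. Colour gives log2(CPM + 1) minus the mean of the 3 water libraries of the same tissue. The root PEG columns are red because the rule requires it, whereas the shoot columns, which the rule did not use, hold red rows beside rows near 0.

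How many genes the rule takes depended on the scaling of the root libraries. Root water B stood apart, with a TMM factor (edgeR's scaling for composition) of 0.707 against 0.981 or more in the other root water libraries, and it held the lowest water value for 130 of the 210 members. Among the PEG libraries the factor ran from 0.774 in 3 h B, and 0.835 in 2 h A, to 1.28 in 3 h C. With TMM-scaled CPM 174 genes met the rule, of which 111 were among the 210, and the members' median ratio became 1.85. All 210 still had a TMM ratio above 1, the lowest being 1.26, and 55 had one under 1.5. Of the 118 members with a ratio of 2 or more, 90 met the rule under both scalings. By library totals the median log2 ratio of the 6328 genes with a root mean of 10 CPM or more was 0.25, against 0.02 with TMM, so the middle gene was itself higher in PEG by library totals. Leaving out root water B gave 237 genes, 181 of them members, whereas leaving out root water A gave 440 and leaving out 3 h B gave 372.

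**Figure D2:**
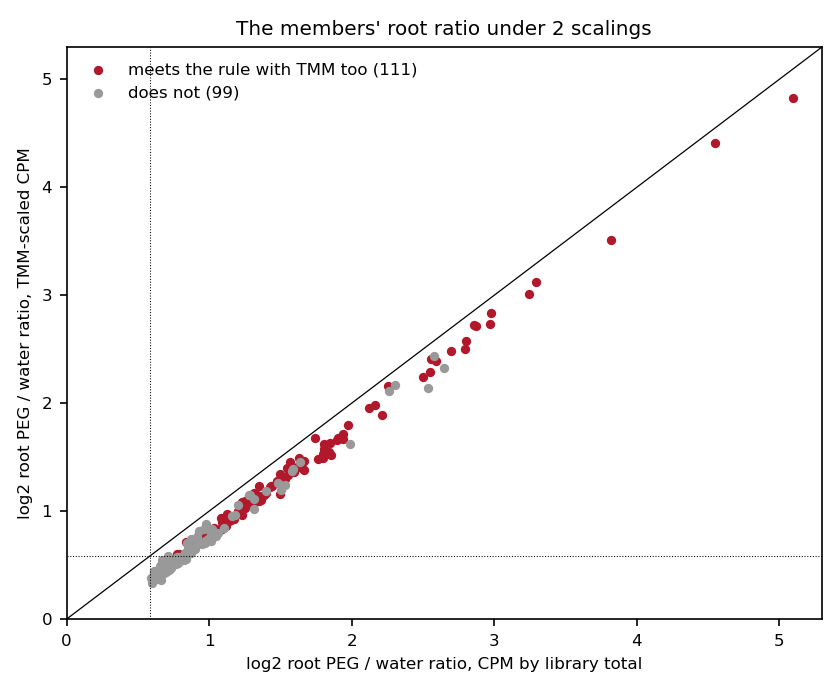
Each point is 1 of the 210 members. The horizontal axis is the log2 ratio of mean root PEG CPM to mean root water CPM by library totals, the vertical axis the same ratio with TMM-scaled CPM, the solid line marks equality and the dotted lines a ratio of 1.5. The points lie below the line of equality, and the 99 grey members, which miss the rule with TMM, lie mostly at low ratios.

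ABA genes gave 1 member of synthesis, 1 receptor and 1 phosphatase, from lists of 1, 7 and 6 genes over the minimum level, where members were 3.23% of all genes. NCED3, the dioxygenase of ABA synthesis, was the 1 gene of 7 for ABA synthesis and breakdown in the table that reached the minimum root level, and it was a member. With a root water mean of 1.65 CPM, NCED3 reached that level by its PEG values, so this count is partly set by the choice. Its levels were 2.65, 1.06 and 1.24 CPM in the root water libraries, 7.23, 13.1 and 13.7 after 1 h, 23.7, 11.5 and 12.4 after 2 h and 10.4, 6.71 and 9.84 after 3 h. The lowest PEG value, in 3 h B, was above all 3 water values, as the rule requires, and the highest, in 2 h A, stood apart from the other 8. The ratio was 7.31 by totals and 6.57 with TMM, on 13 counts in the 3 water libraries together.

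PP2CA, a phosphatase that restrains ABA signalling, had 82.5, 95.8 and 83.2 CPM in water and 121 to 258 CPM over the 9 root PEG libraries, a ratio of 2.07. With TMM its ratio was 1.71 and it missed the rule. It was the 1 member among 6 clade A phosphatases over the minimum level. The ABA receptor PYL1 had 32.4, 17.56 and 28.6 CPM in water and 35.1 to 57.8 CPM in PEG, a ratio of 1.71, and was the 1 member among 7 receptors over the minimum. No SnRK2 kinase or ABF factor was a member, of 4 over the minimum.

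Among lists of stress transcription factors, the NAC and the DREB, CBF, ERF and ZAT lists held more. The list of HD-Zip, MYB, NF-Y and HSF factors held 0 of 4 over the minimum. Members were 3.23% of all genes over the minimum, and all lists were chosen with earlier results of these data known. Of 5 stress NAC factors over the minimum 3 were members: RD26, ATAF1 and ATAF2. RD26, a NAC factor of dehydration and ABA responses, had 15.3, 9.58 and 14.9 CPM in water, 35.4, 131 and 137 after 1 h, 60.4, 64.2 and 107 after 2 h and 48.0, 27.9 and 64.4 after 3 h, a ratio of 5.66. Its 1 h libraries spread from 35.4 to 137 CPM and overlapped those of 2 h and 3 h. ATAF1 had 171, 192 and 177 CPM in water and 212 to 859 CPM in PEG, with a ratio of 2.84, and did not meet the rule with TMM. ATAF2 had 103, 58.5 and 97.5 CPM in water and 104 to 367 CPM in PEG, a ratio of 2.56.

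Of 14 DREB, CBF, ERF and ZAT factors over the minimum, 4 were members and 1 was in the mirrored falling set. DREB2A and CBF3, with root water means of 4.19 and 6.13 CPM, reached the minimum by their PEG values. The count of members is therefore partly set by the choice, beside a share of 3.23% of all genes over the minimum. DREB2A, a factor that binds the DRE, had 4.42, 3.19 and 4.97 CPM in root water, 10.3, 136 and 21.6 after 1 h, 8.57, 7.82 and 20.7 after 2 h and 9.11, 9.29 and 37.8 after 3 h. The value of 1 h B exceeded each of the other 8 PEG values by more than any of them exceeded water, and the ratio of 6.93 leans on it. CBF3, the cold-induced DREB1A, had 5.89, 6.92 and 5.59 CPM in water, 9.13, 54.5 and 84.5 after 1 h, 42.0, 27.6 and 56.7 after 2 h and 24.2, 13.9 and 32.7 after 3 h. Its ratio was 6.26, with 1 h A just above water, and with TMM it missed the rule. RAP2.4 had 189, 187 and 219 CPM in water and 359 to 554 CPM in PEG, and the related RAP2.4D (AT1G22190) 119, 137 and 105 and 215 to 478, with ratios of 2.31 and 2.38.

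All 3 LSU genes over the minimum level, of 4 genes with that product in the table, were members. The minimum is a mean over the root PEG libraries, and these genes reached it by their PEG levels. Their count is therefore partly set by the choice, beside a share of 3.23% of all genes over the minimum. The LSU genes encode small proteins named for their induction by low sulfur. LSU2 had 7.37, 1.60 and 11.2 CPM in root water, 25.5, 140.2 and 159 after 1 h, 44.5, 29.2 and 68.5 after 2 h and 53.3, 32.0 and 40.4 after 3 h, a ratio of 9.80. LSU1 had 3.54, 1.60 and 3.73 CPM in water, 9.13, 38.8 and 48.6 after 1 h, 44.9, 7.82 and 16.1 after 2 h and 22.9, 12.9 and 8.25 after 3 h, a ratio of 7.88. LSU3 had 4.42, 2.13 and 6.83 CPM in water, 12.2, 40.7 and 41.7 after 1 h, 22.4, 10.4 and 15.1 after 2 h and 16.7, 10.3 and 10.11 after 3 h, a ratio of 4.47. In all 3 the libraries 1 h B and 1 h C were far above 1 h A. The other 4 sulfur deficiency genes over the minimum, SDI2, APR1, APR2 and APR3, also had ratios of 1.5 or more, from 1.78 for APR2 to 5.23 for SDI2, but each had at least 1 PEG library at or below its highest water library. The same held for 1351 of the 6502 genes over the minimum.

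**Figure D3:**
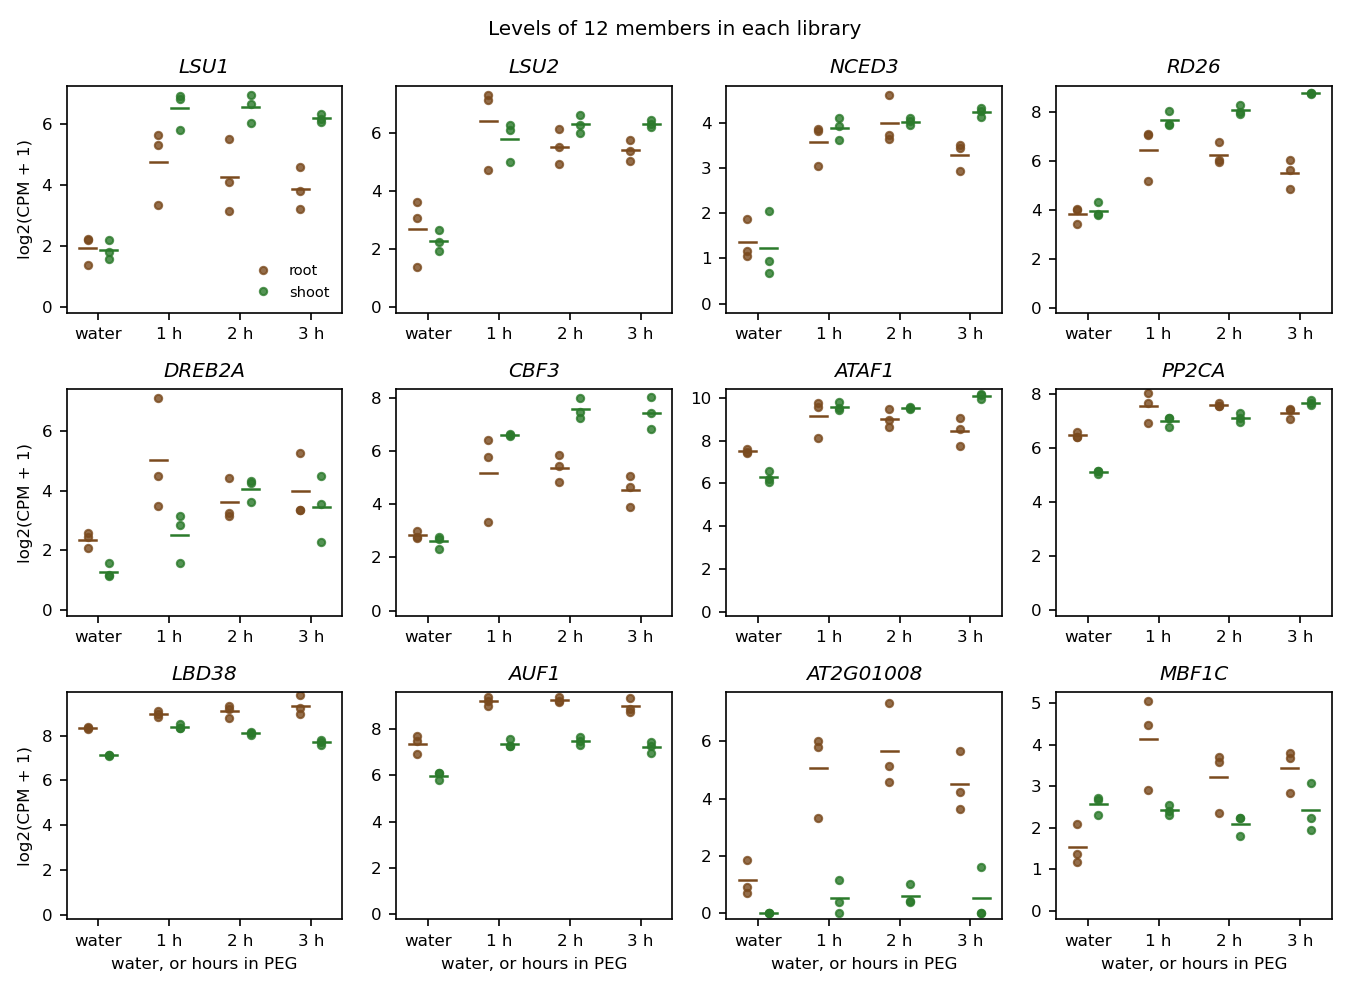
The vertical axis is log2(CPM + 1), the horizontal axis the treatment, and each point is 1 library of root (brown) or shoot (green), with a bar at the mean of 3. LSU1, LSU2, NCED3, RD26 and CBF3 were higher in PEG in both tissues, while AT2G01008 and MBF1C were high in root PEG and not in shoot.

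Several familiar stress groups had no member, although with members at 3.23% of all genes over the minimum, 0 in lists this short is close to that share. Of 13 dehydrins, LEA and cold-regulated genes over the minimum level, 6 had a ratio of 1.5 or more and 0 met the whole rule. Beside the 210 members, 1351 of the 6502 genes over the minimum had such a ratio. RD29A, a gene often used to report DRE activity, averaged 80.6 ± 31.6 CPM in root water (SD, n = 3), 189 ± 111 after 1 h, 133 ± 59.2 after 2 h and 95.3 ± 39.1 after 3 h, and its lowest PEG library, at 64.0 CPM, lay below its highest water library, at 99.6. Lists for proline, galactinol and raffinose, for starch breakdown and sugar transport, for suberin and wax, for evening clock genes and for dark and low-sugar genes also had 0 members, of 5, 4, 6, 6 and 6 genes over the minimum. The list of HD-Zip, MYB, NF-Y and HSF factors had 0 of 4. The photosynthesis and root cell type markers had 0 of 7 and 0 of 8.

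Of the root cell type markers, 2 were in the mirrored falling set, COBL9 and EXPA18. The root hair genes COBL9, EXPA7 and EXPA18 averaged 10.2, 25.7 and 48.6 CPM in root water and had PEG to water ratios of 0.380, 0.365 and 0.320. EXPA7 overlapped between water and PEG libraries. EXPA18, an expansin, was at 48.6 ± 10.01 CPM in water (SD, n = 3), 14.2 ± 1.31 after 1 h, 18.6 ± 4.12 after 2 h and 13.8 ± 3.55 after 3 h. RHD6, also a root hair gene, went the other way with a ratio of 1.99, so the root hair markers did not move together. PYK10 had a ratio of 2.05. The lowest PEG library of RHD6 and of PYK10 lay below its highest water library. The part of these marker levels in the members' values was not tested.

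Of 8 fermentation and low-oxygen genes over the minimum, 7 had a ratio of 1.5 or more and SUS4 and LBD41 were members. Of all 6502 genes over the minimum, the 210 members (3.23%) and 1351 others had such a ratio. The sucrose synthase SUS4 had 4.13, 2.66 and 4.35 CPM in water and 4.57 to 22.5 CPM in PEG. LBD41 had 25.6, 26.1 and 21.7 CPM in water and 26.8 to 64.9 CPM in PEG. Both missed the rule with TMM. Of 3 heat shock genes over the minimum, MBF1C was a member. Like SUS4, MBF1C reached the minimum by its PEG values, so the counts of members in both lists are partly set by the choice. This coactivator of heat responses had 3.24, 1.60 and 1.24 CPM in water, 6.47, 21.3 and 32.5 after 1 h, 11.02, 4.13 and 12.01 after 2 h and 11.8, 12.9 and 6.12 after 3 h, a ratio of 6.48.

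The 2 largest ratios belonged to genes whose counts are uncertain. AT2G01008 had 0.884, 2.66 and 0.621 CPM in root water and 9.13 to 162 CPM in PEG, a ratio of 34.2 on 9 water counts. AT3G06325, a long noncoding RNA, had 4.72, 3.19 and 1.24 CPM in water and 15.2 to 221 CPM in PEG, a ratio of 23.4. Their annotated 3′ ends are 97.1 to 98.3% identical over 241 to 300 bases in TAIR10.1. That of a further member, AT3G41761, matches AT2G01008 over 161 bases at 98.8%. Reads of these genes may therefore not be told apart. The 3 ribosomal RNA genes of the table had higher means in PEG, with ratios of 2.07 to 2.45, and like AT2G01008 and AT3G06325 each was highest in 2 h A. In all 3 the PEG and water libraries overlapped, as in AT2G01020 with 57.5 CPM in root water B and 31.7 in 3 h C. The part of ribosomal RNA in these values was not tested.

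AT5G63350, annotated as a von Willebrand factor A domain protein, had 1.77, 1.06 and 0 CPM in water and 3.10 to 26.9 CPM in PEG. Its ratio of 14.2 rests on 8 water counts. The annotated U1 small nuclear RNA U1.8 had 2.65, 1.60 and 0 CPM in water and 3.43 to 24.3 CPM in PEG, and 96.2% of 156 bases at its 3′ end are shared with another small nuclear RNA gene of the table. ORA47, an AP2/ERF factor of jasmonate responses, had 9.43, 4.26 and 4.97 CPM in water, 28.9, 52.0 and 75.5 after 1 h, 21.6, 33.3 and 44.3 after 2 h and 34.4, 41.3 and 59.1 after 3 h. Its ratio was 6.98. ORA47, MBF1C, ATAF2, AT2G44130, AT5G21940 and AT1G48750 each overlap a gene of the table on the opposite strand. In all, 46 members overlap another annotated gene, 25 of them a gene of the table, and whether counting used strand is not given in the sources used here, so counts of overlapping genes are uncertain.

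Both genes of the table annotated as pre-mRNA cleavage complex II proteins were members. They reached the minimum level by their PEG values, so this count is partly set by the choice. Members were 3.23% of all genes over the minimum. AT5G43620 had 4.42, 1.60 and 0.621 CPM in water and 11.7 to 31.9 CPM in PEG, a ratio of 9.49. AT1G66500 had 3.83, 3.19 and 5.59 CPM in water and 20.9 to 50.7 CPM in PEG, a ratio of 7.85. This family and those of the next paragraphs were picked after the members' values had been seen.

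The most abundant members were AT1G48750, a lipid-transfer protein, and AT5G21940, annotated as a histidine kinase M-like protein. AT1G48750 had 881, 695 and 843 CPM in water and 946 to 1636 CPM in PEG, a ratio of 1.62 that became 1.43 with TMM, under which it missed the rule. AT5G21940 had 319, 443 and 464 CPM in water and 736 to 1405 CPM in PEG, a ratio of 2.57. The DnaJ-domain protein AT3G13310 had 422, 703 and 558 CPM in water and 716 to 1643 CPM in PEG, and missed the rule with TMM. XTH31, an enzyme of cell-wall xyloglucan, had 426, 80.3 and 378 CPM in water and 489 to 1231 CPM in PEG. The low water value was that of root water B, and with TMM XTH31 also missed the rule.

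Among transcription factors outside the stress lists, LBD37, LBD38 and LBD39 were members, and with LBD41 made 4 of 7 LOB domain factors over the minimum level. LBD37, LBD38 and LBD39 are known as repressors of nitrate-responsive genes. LBD38 had 335, 319.7 and 308 CPM in water, 538, 458 and 498 after 1 h, 437, 585 and 634 after 2 h and 496, 884 and 601 after 3 h, a ratio of 1.78. LBD39 had 71.3, 50.0 and 72.6 CPM in water and 96.7 to 192 CPM in PEG, and LBD37 131, 172 and 135 and 199 to 321. With TMM LBD39 met the rule and LBD37 and LBD38 did not. The AP2-type factors annotated as integrase-type DNA-binding proteins had 7 members of 22 over the minimum. These include RAP2.4D, already counted in the DREB, CBF, ERF and ZAT list. GATA factors had 3 members of 14 and cytokinin response factors 2 of 5. Members were 3.23% of all genes over the minimum. Since these families were picked because members had been seen in them, their counts are no evidence of enrichment.

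GDU1 and GDU4, glutamine dumpers that promote amino acid export when overproduced, were 2 of 4 in their family over the minimum. GDU1 had 54.2, 13.8 and 65.2 CPM in water and 68.6 to 333 CPM in PEG, highest in 3 h B, and GDU4 63.4, 42.0 and 54.6 and 108 to 238. Of 7 SAUR-like genes over the minimum, 4 were members, where members were 3.23% of all genes over it. The glutamine dumper and SAUR-like families were likewise picked after values had been seen. The auxin up-regulated F-box genes AUF1 and AUF2 were members too. AUF1 had 121, 209 and 178 CPM in water, 504, 675 and 598 after 1 h, 669, 599 and 579 after 2 h and 655, 426 and 464 after 3 h, a ratio of 3.39. AUF2 had 14.7, 12.2 and 11.2 CPM in water and 28.4 to 46.3 CPM in PEG.

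Other families with more than 1 member were the DUF584 proteins with 3 of 7 over the minimum, DUF506 proteins with 2 of 5, kelch repeat proteins with 3 of 25, CBL-interacting protein kinases with 2 of 6, RING/U-box proteins with 5 of 77 and UDP-glycosyltransferases with 4 of 41. Members were 3.23% of all genes over the minimum. The flavonol synthase FLS1 had 51.6, 21.8 and 41.6 CPM in root water and 69.1 to 207 CPM in PEG. HY5, the bZIP factor of light responses, had 56.9, 17.56 and 57.1 CPM in water and 59.5 to 149 CPM in PEG, with water B far below the other 2, and missed the rule with TMM.

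Of the members, 7 were at least 10 times higher in shoot water than in root water, among them genes of chloroplast proteins. CDSP32, a chloroplast thioredoxin-like protein, had 17.39, 10.11 and 16.8 CPM in root water and 21.2 to 36.2 CPM in root PEG, against 916 to 1086 CPM in shoot water. GAPA, a Calvin cycle dehydrogenase subunit, had 6.48, 6.38 and 6.83 CPM in root water and 7.74 to 20.8 CPM in root PEG, highest in 2 h A, and missed the rule with TMM. The summed photosynthesis markers also were highest in 2 h A among root libraries, at 0.0999% of counts against 0.0378 to 0.0609% in root water. The part of shoot tissue in the GAPA and CDSP32 values was not tested. At the other end, 31 members were at least 10 times lower in shoot water than in root water.

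Within PEG, the members' mean was highest at 1 h in 98 genes, at 2 h in 65 and at 3 h in 47. By library totals the mean at 3 h was below that at 1 h in 143 of 210 members, but in the TMM-scaled fit 103 of 210 had a higher level at 3 h than at 1 h and the median log2 difference was -0.00. The comparison of PEG times uses the 9 libraries that chose the genes. The rule sets no direction between times, but it asks every PEG library to lie above water. It thereby leaves out genes that rise late or return to the water level, and so selects against differences between times. The counts of this comparison are a description and support nothing. edgeR's quasi-likelihood test called 0 of 210 members between any pair of PEG times, at an adjusted p under 0.05. It called 0% of all 9751 genes as well, higher or lower. At an unadjusted p under 0.05 there were 4 members for 3 h against 1 h, 2 for 2 h against 1 h and 3 for 3 h against 2 h, and DESeq2 also called 0. The biological coefficient of variation of the fit was 34.2% in root and 17.2% in shoot. The libraries of 1 time differed widely: 1 h C held the highest PEG value for 53 members, and 3 h B the highest for 30 and the lowest for 71.

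The shoot libraries took no part in the choice, and they gave the test of whether these root genes changed in the other organ. Of the 180 members with enough counts to be tested, edgeR called 77 higher after 1 h, where 7.2% of all 9207 genes tested were called higher, and 0 lower, where 5.16% of all genes were. After 2 h 74 were higher and 1 lower, against 7.31% and 3.41% of all genes. After 3 h 85 were higher and 5 lower, against 10.4% and 6.7% of all genes. As shares of the members tested, the higher calls were 42.8, 41.1 and 47.2%. The members' median log2 fold change in shoot was 0.68, 0.59 and 0.66 at the 3 times, and that of all genes -0.00, -0.00 and -0.02. The 3 PEG times share their water libraries, so the counts are not independent of each other.

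Of the 180, 63 were higher at all 3 times (35%), against 5.1% of all genes tested, and 78 were not called at any time. A further 30 members had too few shoot counts for the test. By the rule itself applied to shoot CPM, 63 of the 210 members passed (30.0%), against 5.78% of the 6502 genes over the minimum root level. In a split chosen after seeing the data, among the 111 members that also met the root rule with TMM, 48 of 94 tested were higher after 3 h, and among the other 99 members 37 of 86.

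**Figure D4:**
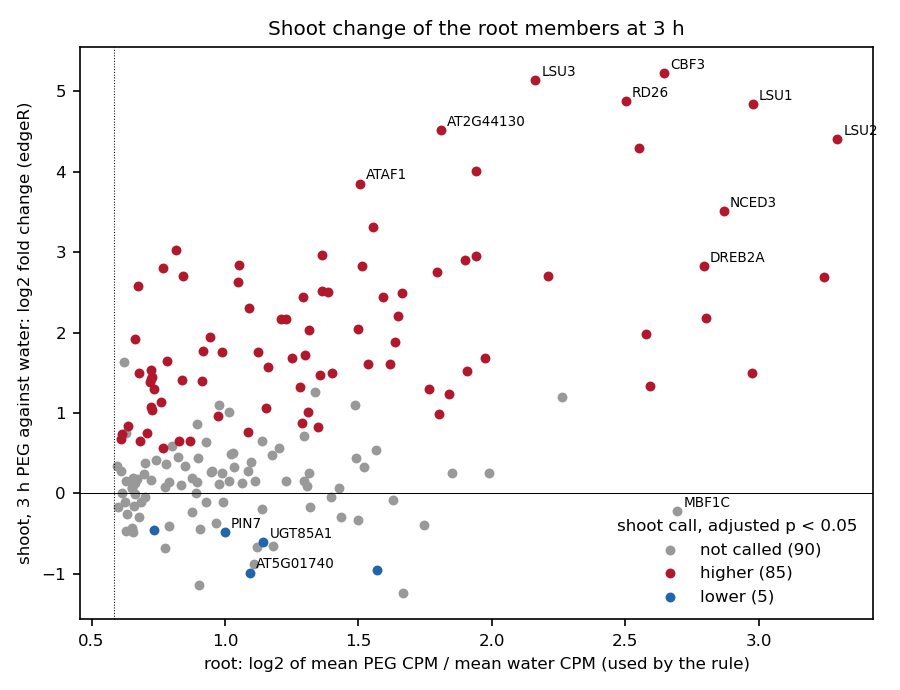
Each point is 1 of the 180 members tested in shoot. The horizontal axis is the log2 ratio of mean PEG to mean water CPM in root, which chose the genes, and the vertical axis edgeR's log2 fold change in shoot after 3 h of PEG, with red for the 85 called higher, blue for the 5 called lower and grey for the 90 not called. CBF3, LSU3, RD26 and LSU1 have the highest shoot values of the members plotted.

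The 3 LSU members, NCED3 and PP2CA rose in shoot. LSU3 had 1.19, 2.36 and 1.53 CPM in shoot water and 59.8, 57.8 and 53.7 after 3 h, a log2 fold change of 5.15 ± 0.44 (SE; edgeR adjusted p = 2.71e-07). LSU1 changed by 4.84 ± 0.43 (adjusted p = 8.93e-07) and LSU2 by 4.41 ± 0.39 (adjusted p = 6.37e-07) on the same log2 scale. All 9 sulfur deficiency genes tested in shoot were higher after 3 h, where 10.4% of all genes tested were. NCED3 had 3.16, 0.591 and 0.921 CPM in shoot water and 16.6, 18.4 and 19.2 after 3 h, a log2 fold change of 3.51 ± 0.34 (adjusted p = 5.03e-07), or 4.42 without shoot water A. PP2CA had 32.0, 34.3 and 34.1 CPM in shoot water and 215, 199.96 and 191 after 3 h, and rose by 2.63 ± 0.20 (adjusted p = 1.42e-08). In these genes no shoot library in PEG overlapped water.

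PYL1 went the other way in shoot. It had 24.9, 17.7 and 20.6 CPM in water, 10.5, 10.4 and 15.3 after 1 h, 12.3, 13.6 and 13.4 after 2 h and 14.1, 13.4 and 11.9 after 3 h, every PEG library below every water library. Its log2 fold change was -0.78 ± 0.24 after 2 h (adjusted p = 0.0425), and -0.68 after 3 h without passing the test (adjusted p = 0.0737). The call at 2 h was lost under 8 of 12 alternatives. In the whole receptor list, 5 of 7 tested in shoot fell after 3 h and 1 rose, against 6.7% and 10.4% of all genes tested.

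The stress factors rose in shoot with some of the smallest p-values of the set. RD26 had 12.6, 13.0 and 18.7 CPM in shoot water, 175, 178 and 258 after 1 h, 236, 254 and 309.8 after 2 h and 432, 426 and 439 after 3 h, a log2 fold change of 4.87 ± 0.26 at 3 h (adjusted p = 2.68e-10). ATAF1 had 71.5, 66.7 and 93.0 CPM in water and 1170.1, 1108 and 989 after 3 h, a change of 3.85 ± 0.22 (adjusted p = 4.17e-10). All 7 stress NAC factors tested rose after 3 h, where 10.4% of all genes tested did. CBF3 had 5.53, 5.91 and 3.99 CPM in water and 264, 173 and 114 after 3 h, a change of 5.23 ± 0.40 (adjusted p = 2.11e-07). RAP2.4 changed by 2.18 ± 0.16 (adjusted p = 1.45e-08), from 86.3 to 129.6 CPM in water to 456 to 472 CPM after 3 h. DREB2A had 1.98, 1.18 and 1.23 CPM in water, 1.96, 6.18 and 7.94 after 1 h, 11.3, 18.0 and 19.2 after 2 h and 21.6, 10.7 and 3.89 after 3 h. It was not called at 1 h (log2 1.96, adjusted p = 0.139) and was called at 2 h (3.32 ± 0.71, adjusted p = 0.00648) and 3 h (2.82 ± 0.77, adjusted p = 0.0209). Leaving out any 1 of the 3 shoot water libraries, or 3 h B, ended the call at 3 h, as did fitting all 24 libraries together, with adjusted p over all alternatives from 0.000149 to 0.0816. Leaving out water C ended that at 2 h (adjusted p = 0.0518).

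The dehydrins, LEA and cold-regulated genes, of which 0 were members, rose in shoot in 15 of 18 genes tested after 3 h. So did 6 of 7 evening clock genes, and of 15 DREB, CBF, ERF and ZAT factors 10 rose and 1 fell. Of all genes tested, 10.4% were called higher at 3 h and 6.7% lower. The lists were chosen with earlier results known. Of 9 fermentation and low-oxygen genes tested in shoot, 3 rose and 4 fell. Of the members of that list, LBD41 had 19.4, 6.498 and 23.6 CPM in shoot water and 4.16, 7.69 and 9.59 after 3 h (log2 -1.13 ± 0.42, adjusted p = 0.0742, not called), and SUS4 was at most 0.679 CPM in any shoot library. MBF1C had 5.53, 5.32 and 3.99 CPM in shoot water and 7.48, 3.68 and 2.85 after 3 h, a log2 difference of -0.22 ± 0.41 (adjusted p = 0.775). AT2G01008 and AT3G06325 were at 0 to 2.59 CPM in shoot.

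Members with the smallest adjusted p in shoot included genes of little-known role. The kelch repeat gene AT2G44130 had 6.32, 6.498 and 7.98 CPM in water and 148, 154 and 173 after 3 h, a log2 fold change of 4.52 ± 0.25 (adjusted p = 2.68e-10), with 69.7 to 129.6 CPM in root PEG against 22.9 to 30.4 in root water. OZF2, a CCCH zinc finger protein, rose by 2.83 ± 0.17 (adjusted p = 7.25e-10), from 34.4 to 40.3 CPM to 243 to 274 CPM. The DUF506 gene AT3G07350 rose by 2.80 ± 0.18 (adjusted p = 1.57e-09), from 31.9 to 40.2 CPM to 233 to 261 CPM, and missed the root rule with TMM. The DUF584 gene AT5G03230 rose by 4.30 ± 0.29 (adjusted p = 4.99e-09), and its root ratio was 5.87. The DUF584 gene AT5G60680 rose by 2.84 ± 0.22 (adjusted p = 2.23e-08) and missed the root rule with TMM. AT1G29640, also of that family, was called higher (adjusted p = 2.38e-04) on 0, 0 and 3 counts in shoot water and 11, 14 and 29 after 3 h, and its fitted log2 fold change ran from 3.41 to 7.49 over the alternatives, the highest without water C.

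LBD37, LBD38 and LBD39 rose in shoot at 1 h. LBD38 had 139, 138 and 136 CPM in shoot water, 317, 322 and 367 after 1 h, 277, 283 and 259 after 2 h and 210.3, 224 and 192 after 3 h, with log2 fold changes of 1.39 ± 0.16, 0.92 ± 0.16 and 0.65 ± 0.16 (adjusted p = 1.07e-05, 6.85e-04 and 0.00935). The call at 3 h was lost without 3 h B and when all 24 libraries were fitted together. LBD39 had 48.2, 47.8 and 42.7 CPM in water and 91.9, 82.3 and 99.0 after 1 h, a change of 1.09 ± 0.17 (adjusted p = 2.02e-04), and 34.1, 41.8 and 40.4 after 3 h, a difference of -0.20 ± 0.17 (adjusted p = 0.504). LBD37 changed by 1.52 ± 0.18 at 1 h (adjusted p = 7.91e-06) and 0.46 ± 0.18 at 3 h (adjusted p = 0.0875). Whether the shoot change at 3 h differed from that at 1 h was not tested. In root the highest LBD38 value was that of 3 h B.

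AUF1 rose in shoot by 1.48 ± 0.17 after 1 h (adjusted p = 1.09e-05) and 1.29 ± 0.18 after 3 h (adjusted p = 2.61e-05), from 54.5 to 67.5 CPM in water to 122.99 to 203 CPM in PEG. AT5G21940 rose by 2.96 ± 0.20 after 3 h (adjusted p = 5.14e-09) and AT3G13310 by 3.02 ± 0.23 (adjusted p = 1.45e-08). XTH31 was called at 3 h (1.32 ± 0.20, adjusted p = 1.02e-04). The most abundant root member, AT1G48750, had 21.9 to 39.3 CPM in shoot water and 22.4 to 45.9 CPM in shoot PEG, and was not called at 3 h (log2 0.25 ± 0.23, adjusted p = 0.529). GDU1 and GDU4 were not called in shoot after 3 h either, at -0.40 ± 0.37 (adjusted p = 0.528) and 0.45 ± 0.35 (adjusted p = 0.448). CDSP32, GAPA, ATPD and FIB, the chloroplast genes, had log2 differences of -0.36 to 0.14 in shoot at 3 h and were not called. In root, ATPD missed the rule with TMM.

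The 5 members called lower in shoot at 3 h had small changes that did not hold under several alternatives. UGT85A1, a glycosyltransferase of cytokinins, had 115, 122 and 97.3 CPM in shoot water and 61.5, 78.9 and 70.5 after 3 h, a log2 fold change of -0.60 ± 0.16 (adjusted p = 0.0119). The call was lost under 3 of 12 alternatives. PIN7, an auxin efflux carrier, had 67.2, 71.5 and 62.9 CPM in water and 41.6, 49.8 and 48.0 after 3 h (-0.48 ± 0.15, adjusted p = 0.0302), and the call was lost under 7. AT5G01740 had 98.4, 121 and 106 CPM in water, 159, 116 and 218 after 1 h and 63.2, 56.2 and 42.8 after 3 h, higher than water in 2 libraries at 1 h and lower in all 3 at 3 h (-0.98 ± 0.28, adjusted p = 0.0213), and the call was lost under 4. AT5G35732 (-0.95 ± 0.29, adjusted p = 0.0315) and AT2G34510 (-0.45 ± 0.15, adjusted p = 0.044) lost their calls under 6 and 9. AT2G34510 also missed the root rule with TMM. Leaving out 3 h C ended all 5.

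The borders of the rule were crowded. Nearest inside the minimum level were AT4G17180, TSC10B and U1.8, at 10.05, 10.2 and 10.3 CPM, and nearest outside YUC9, AT2G41170 and AT5G64600, at 9.98, 9.87 and 9.85 CPM. Around the ratio of 1.5, AT4G33985, UGT89B1 and AT4G22290 had 1.51, 1.52 and 1.53, and PD1, AT1G68360 and CHIL, outside, 1.496, 1.49 and 1.49. AT3G63052, AT5G07325 and AT3G17120 had a lowest PEG value of 1.0002, 1.0002 and 1.001 times the highest water value, and AT4G27350, AT4G12130 and AT5G43540, outside, of 0.9991, 0.9989 and 0.9981 times. Of these 9 members U1.8 met the rule with TMM and the other 8, AT4G17180, TSC10B, AT4G33985, UGT89B1, AT4G22290, AT3G63052, AT5G07325 and AT3G17120, did not. Failing 1 condition alone kept out 134 genes by level, 38 by ratio and 1351 by the gap.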

How the data were processed

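The authors deposited whole-number read counts per gene for 24 MARS-seq libraries, and these counts were used. A further 48 columns of normalized and transformed values were not used. STAR 2.4.2a, HTSeq, cutadapt, bcl2fastq and DESeq2 are named in the submitters' processing notes, and neither the genome build nor the strand setting is stated there. CPM was computed from each library's total count. Shoot and root were each fitted over their 12 libraries with edgeR 4.0.16 (TMM scaling, filterByExpr, robust quasi-likelihood test, two-sided, Benjamini-Hochberg over all genes tested, called under 0.05), and DESeq2 1.42.0 was an alternative. The fit was tested on simulated data. The members, the 18 gene lists and the tests were chosen with earlier results of these data known. Members named were the 12 largest root ratios, the 8 highest levels, up to 6 called higher and 6 lower in shoot at 3 h by adjusted p, the members of the lists and the 3 nearest to each threshold. The named genes of the families and the chloroplast genes were chosen after their values were seen. Of the locus codes, 14457 matched the TAIR10.1 annotation and 100, of organelles, did not. Similar 3′ ends were found with BLAST 2.17.0 (at least 95% identity over 75 bases). Replicates differed by more than sampling noise (chi-square per degree of freedom 2.30 to 35.3).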

Additional observations from a re-analysis of the deposited data

How the results depend on the processing

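The number of genes meeting the root rule was 210, and 118 at a ratio of at least 2. Leaving out 1 root library at a time gave 205 to 440 genes, the extremes outside 1.5 times being 440 without root water A and 372 without root PEG 3 h B. Without the 3 libraries of lowest TMM factor, an alternative chosen after seeing the data, 632 genes met the rule, 177 of them members. Members called higher in shoot stayed within 1.5 times of 77, 74 and 85 under every alternative run, with 66, 60 and 70 when all 24 libraries were fitted together as the lowest of the settings that kept all libraries. Leaving out 1 library gave 62 to 75 at 1 h, 61 to 71 at 2 h and 73 to 86 at 3 h.

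Members called lower in shoot were few and moved. By library totals there were 1 at 1 h and 0 at 2 h, without the filter on low counts 3 at 3 h, and with all 24 libraries 0 at 2 h and 1 at 3 h. Leaving out 1 library gave 0 to 1 at 1 h, 0 to 4 at 2 h and 0 to 3 at 3 h. With the replicate letter as a block, 68, 72 and 81 members were higher and 0, 0 and 3 lower, and 0 changed between root PEG times. Deviations of same-letter libraries correlated at -0.61 to 0.71 in root, where all 6 pairs of C libraries were positive (0.07 to 0.71) and pairs of A or of B had both signs, and at -0.49 to 0.24 in shoot. Since not every pair was over 0.1, the letters were not taken to pair the samples. Of 116 shoot calls of single named genes, 91 held under every alternative run. The uncalled log2 differences at 3 h turned direction without shoot PEG 3 h C, and over the left-out libraries ran from -0.57 to 0.13 for MBF1C and from -0.0045 to 0.29 for AT4G17180. The cause was not tested.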
